A study of Mus musculus with 6 samples.

Results

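The contractile genes of smooth muscle were examined in the oviduct of mice that lack CDC42 in part of the reproductive tract. The group holds 31 genes out of 55276 rows of the deposited table, picked by symbol: the actin, myosin and tropomyosin genes of the filaments, the proteins that bind or phosphorylate them, the dense plaque and intermediate filament genes, ion channels and calcium store genes, small heat shock proteins, a creatine kinase, and the transcription factors of the muscle programme. No measured value entered the choice, although earlier results of these data were known when the list was made. All 31 genes passed the filter for testing, which asks for 0.5 RPKM (reads per kilobase of exon, scaled to the depth of the library) or more in 3 or more libraries.

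RNA was taken from whole oviducts of adult C57BL/6 females on day 2 of pregnancy, where day 1 is the day of the vaginal plug. The control group, Cdc42f/f, carries loxP sites around exon 2 of both copies of Cdc42, which encodes a small GTPase of cell polarity and actin. The knockout group, PgrCreCdc42f/f, carries the same floxed copies plus a Cre recombinase expressed from the progesterone receptor gene Pgr, and the controls were its littermates without Cre. There were 3 libraries per genotype, described in the labels as biological replicates, and a legend of the study gives 3 mice per genotype for this comparison. Mice with the Cre allele and an intact Cdc42 were not among the libraries, so the Cre allele and the loss of Cdc42 cannot be told apart. By the study's immunostaining CDC42 was absent from the isthmus of the knockout and present in the ampulla, whereas each library holds the whole tube, with epithelium, stroma, muscle and vessels.

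The muscle coat of the oviduct, the myosalpinx, contracts and, together with the beating cilia of the epithelium, moves eggs and embryos along the tube. In smooth muscle, calcium entering through channels binds calmodulin, which activates myosin light chain kinase; phosphorylated myosin then pulls on actin filaments that are anchored in dense plaques at the membrane. Most genes of this apparatus are switched on by serum response factor (SRF), which binds a short DNA element, the CArG box, together with its muscle coactivator myocardin.

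The CArG box was looked for in the promoters of the genes, since it is the element that ties them to SRF and myocardin, both of which are in the group. It consists of CC and GG with a run of A and T bases between them, and because the pattern reads the same on both strands, a match on one is a match on the other. RefSeq promoters on GRCm38.p6, from 250 bases before to 50 after the start site, were at hand for 27 of the 31 genes. Those of Actg2, Myh11, Tagln and Myocd were missing and were not searched. A CArG box was found in 4 of these 27 genes (14.8%), Myl9, Vcl, Ldb3 and Srf, and in 488 of all 27025 genes (1.8%). A box with 1 C or G within the A and T run was found in 5 of 27 genes (18.5%), Acta2, Myl9, Synm, Cacna1c and Hspb6, and in 9.7% of all genes. Myl9 held both kinds. A match describes letters in a window of 300 bases and was not tested for binding. The stretches around the boxes follow for the 4 genes with a full box and for 3 genes on which the results turn, with the box in capitals and each read 5′ to 3′ on the strand of the gene.
Myl9, chr2:156775278-156775337, plus strand: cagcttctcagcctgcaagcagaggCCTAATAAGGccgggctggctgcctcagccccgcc
Vcl, chr14:20929148-20929205, plus strand: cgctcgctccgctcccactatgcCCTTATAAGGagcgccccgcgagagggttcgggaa
Ldb3, chr14:34588682-34588741, minus strand: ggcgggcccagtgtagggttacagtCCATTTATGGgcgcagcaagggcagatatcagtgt
Srf, chr17:46556210-46556269, minus strand: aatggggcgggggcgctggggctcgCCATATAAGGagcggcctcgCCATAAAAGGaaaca
Acta2, 1 C or G within the A and T run, chr19:34255423-34255482, minus strand: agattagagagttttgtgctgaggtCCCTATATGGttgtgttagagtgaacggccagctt
Synm, 1 C or G within the A and T run, chr7:67759947-67759992, minus strand: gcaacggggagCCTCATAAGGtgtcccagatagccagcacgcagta
Hspb6, 1 C or G within the A and T run, chr7:30553051-30553088, plus strand: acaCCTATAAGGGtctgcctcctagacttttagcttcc
The gene of SRF itself thus held 2 boxes side by side, the first lying 82 bases and the second 62 bases before its start site. The box of Myl9, the gene of the regulatory light chain of smooth muscle myosin, lay 161 bases before the start site, and that of Vcl lay 227 bases before it. The Acta2 box shown lay 84 bases before the start site, and a second box of this kind lay 34 bases before it. All these distances are from the start sites of the RefSeq promoters. The stretches shown for Acta2 and Hspb6 lie within the spans of these genes in the GENCODE M21 annotation. Their RefSeq start sites therefore differ from the outer starts of those spans.

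The depth of the libraries was similar. Reads recovered from the RPKM values came to between 42360132 and 46406292 per library, and the gene of the group with the fewest reads, Casq2, was covered by between 89 and 175 reads. The targeted gene Cdc42 was measured at 127.6, 130.2 and 142.4 RPKM in the controls, against 113.6, 125.5 and 120.9 RPKM in the knockouts, so the knockout libraries lay lower without overlap, by a small margin for a whole organ (log2 difference -0.15, adjusted p = 0.3595, limma). These values cover all exons of Cdc42, not the floxed exon alone. Pgr, the gene that carries Cre, was at 13.5 ± 0.957 RPKM (SD, n = 3) in controls and 10.8 ± 0.213 RPKM in knockouts (log2 difference -0.31, adjusted p = 0.1046, limma). The tissue label fitted its markers, with Ovgp1, the oviductal glycoprotein gene of the secretory cells, between 1574 and 3849 RPKM and the cilia gene Foxj1 between 57.2 and 120 RPKM in the 6 libraries.

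Most contractile genes stood higher in PgrCreCdc42f/f than in Cdc42f/f oviducts, and no single gene passed the test. The log2 difference, knockout minus control of log2(RPKM + 0.1), was positive for 27 of the 31 genes (87.1%), whereas 50.9% of the 17584 genes tested were positive. The median difference was 0.42 for the group and 0.01 for all tested genes. By limma 0 of 31 genes were called higher and 0 lower at an adjusted p below 0.05, where over all tested genes 0.762% were called higher, 0.893% lower and 1.65% in either direction. At an unadjusted p below 0.05, 14 of the 31 genes (45.2%) were higher and 3 (9.68%) lower, beside 9.74% and 11.0% of all tested genes. The groups did not overlap, with the knockouts higher, for 9 genes (29.0%), beside 13.5% of all tested genes, and with the knockouts lower for 2 genes (6.45%), beside 13.9%. With limma voom on the recovered reads 1 gene, Myocd, was called higher and 0 lower.

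**Figure D1:**
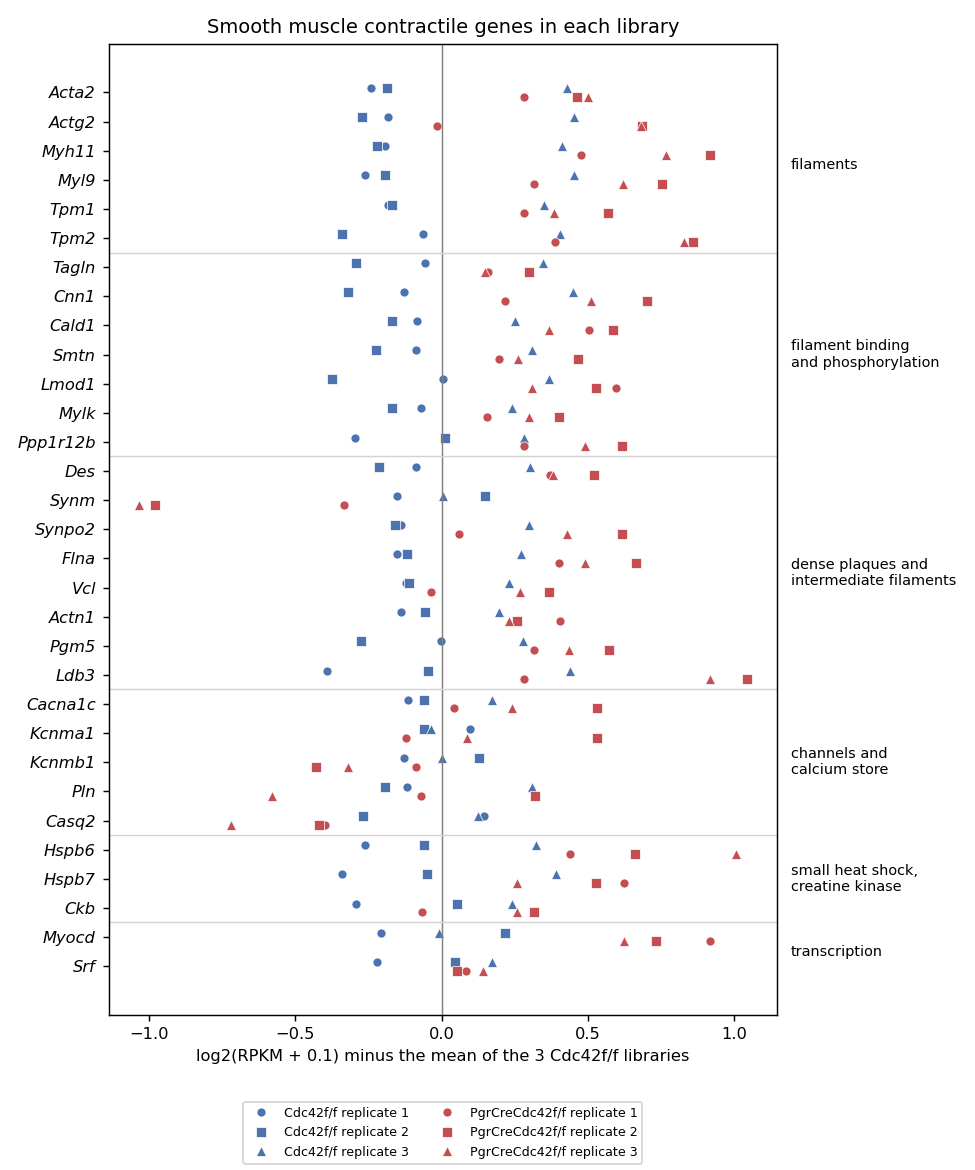
Each point is the value of a gene in 1 library on the log2(RPKM + 0.1) scale, minus the mean of the 3 Cdc42f/f libraries, with the 31 genes grouped by role (blue, Cdc42f/f; red, PgrCreCdc42f/f; circle, square and triangle, replicates 1, 2 and 3). Cdc42f/f replicate 3 lies among the red points for most genes, and Synm, Kcnmb1 and Casq2 have their red points to the left.

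The spread among the controls came largely from a single library. Summed over the 31 genes, the libraries held 3268, 3287 and 4880 RPKM in Cdc42f/f and 4571, 5694 and 5410 RPKM in PgrCreCdc42f/f. Cdc42f/f replicate 3 was thus above PgrCreCdc42f/f replicate 1 and below the other two knockouts, and the groups overlapped. It was the highest of the 3 controls for 26 of the 31 genes, against 32.3% of all tested genes, and it exceeded PgrCreCdc42f/f replicate 1 for 20 genes. The median of the 31 genes relative to the control mean was -0.14, -0.17 and 0.30 on the log2 scale in the Cdc42f/f libraries and 0.28, 0.53 and 0.37 in the PgrCreCdc42f/f libraries. Among the knockouts replicate 2 was highest, holding the top value of all 6 libraries for 20 of the 31 genes, and replicate 1 was the lowest of the 3 for 20 genes. All 3 knockouts exceeded Cdc42f/f replicates 1 and 2 for 25 of the 31 genes, but exceeded all 3 controls for only 9. Setting replicate 3 aside was a choice made after the values were seen. For this count and those of 20 genes the share over all tested genes was not computed. Without Cdc42f/f replicate 3 the median difference was 0.58, and 0 of the 31 genes were called higher. In whole oviducts a larger share of muscle cells, more RNA per muscle cell and RNA from other cells of the tube cannot be told apart.

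**Figure D2:**
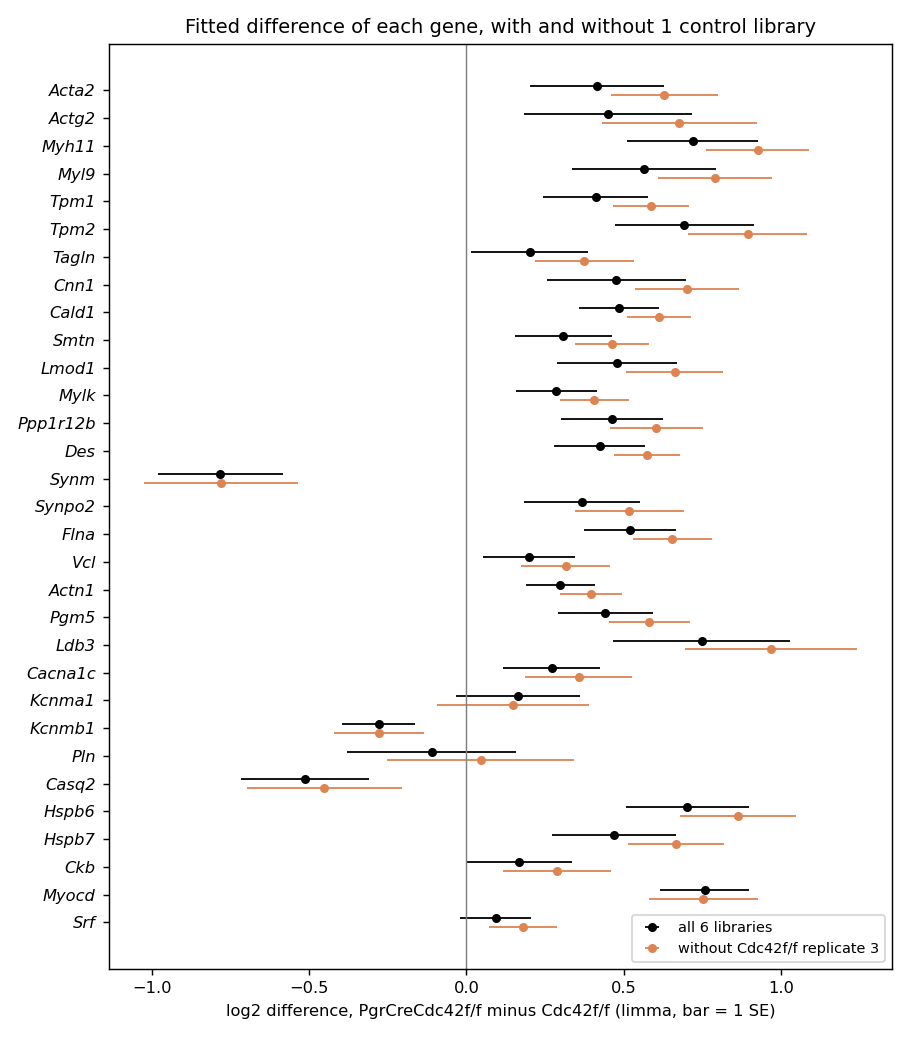
The fitted log2 difference of each of the 31 genes (knockout minus control of log2(RPKM + 0.1), bar 1 SE) from limma, with all 6 libraries (black) and without Cdc42f/f replicate 3 (orange). Without that library most positive differences are larger, the median being 0.58 in place of 0.42, whereas Myocd, Synm and Kcnmb1 hardly move.

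All 6 filament genes had a positive difference, with a median of 0.51. Acta2, the smooth muscle alpha actin gene (chr19:34241090-34255590, minus strand of GRCm38, as in GENCODE M21), was the most abundant gene of the group and ranked 14th by control mean among the tested genes. It was measured at 937, 972 and 1489 RPKM in the controls, against 1347, 1527 and 1567 RPKM in the knockouts. The groups overlapped through Cdc42f/f replicate 3, and the difference did not pass the test (0.42 ± 0.21 SE, adjusted p = 0.327, limma). Myh11, the smooth muscle myosin heavy chain gene (chr16:14194535-14291372, minus strand), read 262, 256 and 398 RPKM in Cdc42f/f against 415, 565 and 508 RPKM in PgrCreCdc42f/f. Every knockout lay above every control, and the ratio of the means was 1.63 (log2 difference 0.72 ± 0.21 SE, adjusted p = 0.128, limma). Set against Acta2 of the same library, Myh11 stood at 0.279, 0.264 and 0.267 in controls and 0.308, 0.370 and 0.325 in knockouts, so relative to Acta2 it was also higher without overlap. This ratio was chosen after its values were seen and was not tested.

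Myl9, the regulatory light chain gene that is phosphorylated to start contraction, was at 517, 542 and 847 RPKM in the controls, against 771, 1044 and 952 RPKM in the knockouts (log2 difference 0.56, adjusted p = 0.231, limma). Tpm2, a tropomyosin gene, read 187, 155 and 259 RPKM in controls and 256, 355 and 348 RPKM in knockouts (0.69, adjusted p = 0.153). For both genes Cdc42f/f replicate 3 was above PgrCreCdc42f/f replicate 1 and below the other knockouts. Tpm1, the other tropomyosin gene, had means of 159 ± 35.2 and 208 ± 21.2 RPKM (0.41, adjusted p = 0.234). Actg2, the gamma actin of enteric and visceral muscle, was at 234, 220 and 364 RPKM in controls, against 262, 427 and 426 RPKM in knockouts (0.45, adjusted p = 0.394). Its lowest knockout was close to the controls, and its ratio to Acta2 overlapped between the groups, at 0.240 ± 0.0122 and 0.249 ± 0.0469. The open reading frames of the 2 actin genes are 84.2% identical, yet 0 of 1986 windows of 50 bases in the Acta2 transcript occur in that of Actg2, so reads of that length can tell the 2 transcripts apart.

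The 7 genes whose products bind the filaments or set myosin phosphorylation were all positive, with a median difference of 0.46. Cald1 encodes caldesmon, which holds back the myosin ATPase on actin. It read 41.3, 38.9 and 52.1 RPKM in Cdc42f/f and 62.1, 65.7 and 56.4 RPKM in PgrCreCdc42f/f, without overlap (log2 difference 0.49 ± 0.13 SE, adjusted p = 0.106, limma). Ppp1r12b, a targeting subunit of myosin phosphatase, read 18.03, 22.35 and 26.96 RPKM in controls against 26.97, 34.01 and 31.14 RPKM in knockouts. Its groups did not overlap, but Cdc42f/f replicate 3 and PgrCreCdc42f/f replicate 1 nearly touched (0.46, adjusted p = 0.182). Mylk, the myosin light chain kinase gene, had means of 82.3 ± 12.6 and 99.9 ± 8.47 RPKM (0.29, adjusted p = 0.273). Kinase and phosphatase subunit thus both had positive differences, and the ratio of Mylk to Ppp1r12b was 3.72 ± 0.546 in controls and 3.26 ± 0.104 in knockouts, with overlapping groups. The calponin gene Cnn1 (0.48, adjusted p = 0.284), the smoothelin gene Smtn (0.31, adjusted p = 0.315) and the leiomodin gene Lmod1 (0.48, adjusted p = 0.224) overlapped between the groups.

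Tagln (chr9:45929619-45936058, minus strand), which encodes transgelin, one of the most abundant proteins of smooth muscle, was listed at only 1.79, 1.51 and 2.41 RPKM in Cdc42f/f and 2.10, 2.32 and 2.08 RPKM in PgrCreCdc42f/f. Of its annotated exon bases 67.9% are shared with genes on the opposite strand, Pcsk7 among them. Pln, listed between 0.983 and 1.92 RPKM, shares 64.7% with genes on the opposite strand, Cep85l among them. Over the whole table, the share of protein-coding genes listed at 0 in all libraries was 16.9% of 15136 genes that share no exon base. It was 74.4% of 43 genes with at least 95% of their exon bases shared with the opposite strand, but 6.5% of 138 genes with 50% to 95% shared in this way, the class of Tagln and Pln, and 1.7% of 4555 genes with less than 50% shared. Neither Tagln nor Pln was listed at 0, so this share does not bear on them directly. The median over genes of the mean RPKM was 1.814 with no shared base and 4.928 below 50% shared. It was 0.964 at 50% to 95% and 0.0 at 95% or more. The classes do not show how far the low values of Tagln and Pln come from the shared bases, which was not tested. Since the use of strand in counting is not known, both values are uncertain as levels of their transcripts. Vcl shares 25.5% of its exon bases and Smtn 16.3%. The other 27 genes share at most 10% of their exon bases, and their median difference was 0.44.

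**Figure D3:**
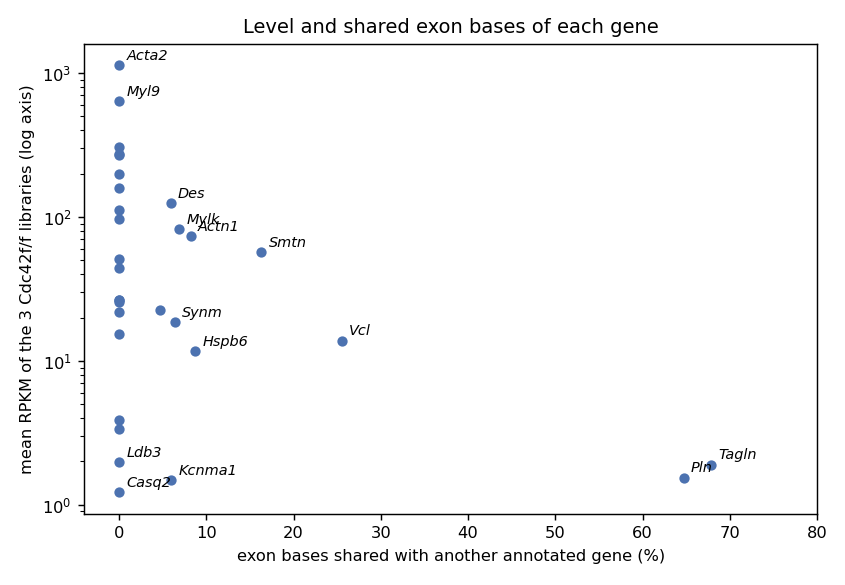
Each point is 1 of the 31 genes, with the percentage of its annotated exon bases shared with another gene on the horizontal axis and its mean RPKM over the 3 Cdc42f/f libraries on a log vertical axis. Tagln and Pln stand alone at 67.9% and 64.7% shared bases and at 1.90 and 1.54 RPKM.

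Among the 8 genes of dense plaques and intermediate filaments 7 had a positive difference, and that of Synm was negative. Flna, the filamin A gene, whose product crosslinks actin under the membrane, was at 239, 245 and 321 RPKM in the controls, against 351, 422 and 373 RPKM in the knockouts. Its groups did not overlap (log2 difference 0.52 ± 0.15 SE, adjusted p = 0.122, limma). Des, the desmin gene, read 116, 106 and 152 RPKM in controls and 159, 177 and 160 RPKM in knockouts (0.42, adjusted p = 0.171). Pgm5, whose product sits at adherens-type junctions of muscle, read 50.2, 41.5 and 61.0 RPKM against 62.6, 74.9 and 68.1 RPKM (0.44, adjusted p = 0.173). Actn1, an alpha actinin gene, read 66.5, 70.5 and 83.9 RPKM against 97.1, 87.6 and 86.0 RPKM (0.30, adjusted p = 0.196). In these 4 genes all knockouts were above all controls, while Cdc42f/f replicate 3 was the nearest control. Ldb3, a PDZ and LIM domain gene of actin anchoring sites, had the second largest positive difference of the group, 0.75, at means of 1.97 ± 0.607 and 3.36 ± 0.898 RPKM, but the groups overlapped (adjusted p = 0.204). Synpo2 (0.37, adjusted p = 0.314) and the vinculin gene Vcl (0.20, adjusted p = 0.484) also overlapped.

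Synm (chr7:67730160-67759742, minus strand) encodes synemin, an intermediate filament protein that assembles with desmin. It was measured at 16.6, 20.4 and 18.5 RPKM in the controls, against 14.6, 9.30 and 8.95 RPKM in the knockouts. All knockouts were below all controls, replicate 1 by the smallest margin, and the ratio of the means was 0.592 (log2 difference -0.78 ± 0.20 SE, adjusted p = 0.1002, limma). Without PgrCreCdc42f/f replicate 1 the difference was -1.01 and Synm was called lower (adjusted p = 0.0319, limma), the only call among the 31 genes under any left-out library. Over all the settings tried its difference ran from -1.01 to -0.66, with adjusted p from 0.0319 to 0.269. The ratio of Synm to Des within a library was 0.143, 0.193 and 0.122 in controls and 0.0918, 0.0525 and 0.0558 in knockouts, again without overlap. Cdc42f/f replicate 3, high for desmin, was not high for synemin.

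**Figure D4:**
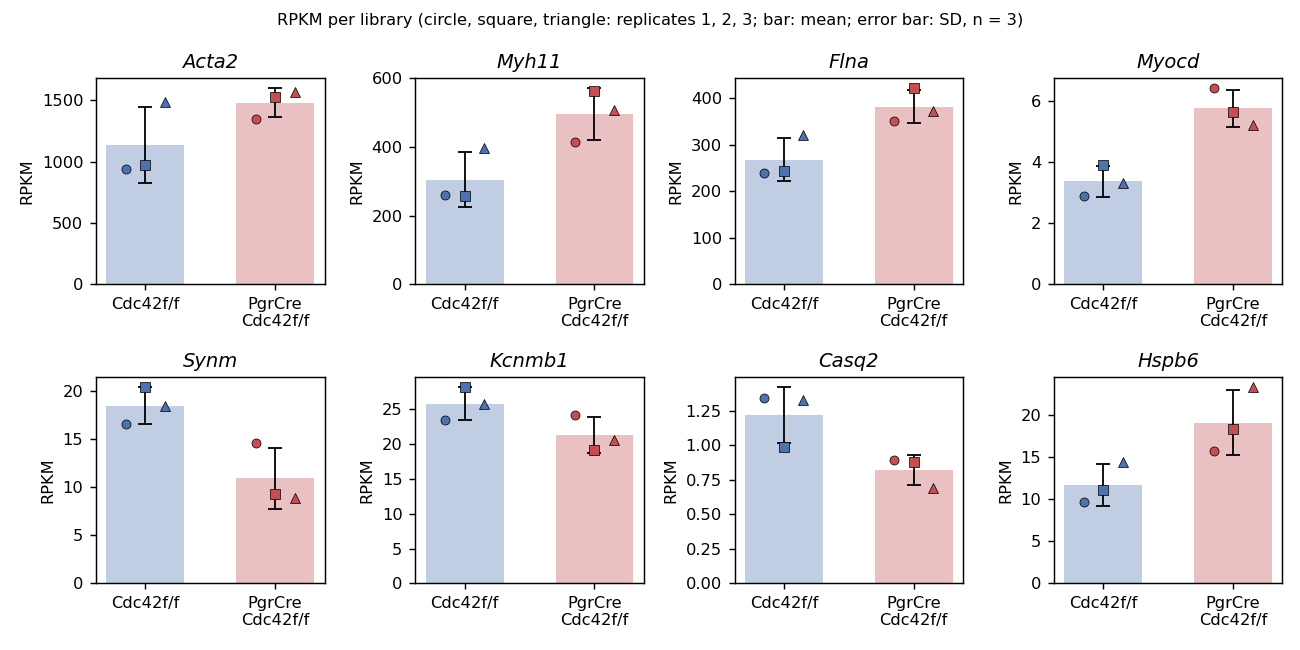
RPKM of 8 of the genes in each library (symbols, replicates 1 to 3), with the mean as a bar and the SD as error bar (n = 3 per group). Myh11, Flna, Myocd and Hspb6 have all knockouts above all controls, Synm and Casq2 have all below, and Acta2 and Kcnmb1 overlap.

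Among the 5 channel and calcium store genes 2 had a positive difference. Their median of -0.11 is the value of Pln, which is uncertain, and it was 0.05 without Cdc42f/f replicate 3 and 0.12 without PgrCreCdc42f/f replicate 3. Kcnmb1, the beta1 subunit of the large-conductance calcium-activated potassium channel that damps contraction, read 23.5, 28.2 and 25.8 RPKM in Cdc42f/f and 24.3, 19.1 and 20.6 RPKM in PgrCreCdc42f/f. Only PgrCreCdc42f/f replicate 1 lay within the control range (log2 difference -0.28 ± 0.12 SE, adjusted p = 0.239, limma). Kcnma1, the pore-forming subunit of the same channel, was at 1.48 ± 0.0941 and 1.70 ± 0.429 RPKM, and its sign depended on PgrCreCdc42f/f replicate 2 (0.17, and -0.02 without that library). Casq2, a calsequestrin gene whose product stores calcium in the sarcoplasmic reticulum, read 1.35, 0.987 and 1.32 RPKM in controls and 0.891, 0.878 and 0.694 RPKM in knockouts. Its groups did not overlap, at between 89 and 114 reads in the knockouts and 125 and 175 reads in the controls (-0.51 ± 0.20 SE, adjusted p = 0.222). Cacna1c, the pore of the L-type calcium channel, was at 3.88 ± 0.429 and 4.73 ± 0.833 RPKM (0.27, adjusted p = 0.372). The difference of Pln, the phospholamban gene, was -0.11 ± 0.27 SE (adjusted p = 0.849, limma).

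The small heat shock and energy genes were positive. Hspb6, whose product Hsp20 is phosphorylated when smooth muscle relaxes, read 9.62, 11.1 and 14.5 RPKM in Cdc42f/f and 15.7, 18.3 and 23.3 RPKM in PgrCreCdc42f/f. The groups did not overlap, at a ratio of means of 1.63 (log2 difference 0.70 ± 0.20 SE, adjusted p = 0.120, limma). Hspb7 read 11.8, 14.5 and 19.8 RPKM against 23.2, 21.7 and 18.01 RPKM (0.47, adjusted p = 0.245). Ckb, the brain-type creatine kinase that is also found in smooth muscle, was at 112 ± 20.4 and 125 ± 17.3 RPKM (0.17, adjusted p = 0.613). Both Hspb7 and Ckb overlapped between the groups.

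Myocd, the gene of the SRF coactivator myocardin (chr11:65176561-65269989, minus strand), had the smallest p and the largest positive difference among the 31 genes. It was measured at 2.89, 3.91 and 3.32 RPKM in the controls, against 6.41, 5.63 and 5.21 RPKM in the knockouts, from between 806 and 1926 reads. All knockouts were above all controls, the ratio of the means was 1.71, and the library order was not that of the filament genes, for Cdc42f/f replicate 3 lay between the other controls. The difference of 0.76 ± 0.14 SE missed the threshold in the main fit (adjusted p = 0.0564, limma) and passed it with limma voom on recovered reads (0.77, adjusted p = 0.0395). Over all the settings tried it ran from 0.63 to 0.87, with adjusted p from 0.0395 to 0.165. Srf itself was at 26.4 ± 3.61 and 27.9 ± 0.901 RPKM (0.09 ± 0.11 SE, adjusted p = 0.679), and its sign turned without Cdc42f/f replicate 1 (-0.02). The ratio of Myocd to Srf was 0.129, 0.144 and 0.112 in controls and 0.231, 0.207 and 0.180 in knockouts, without overlap. This ratio, like those given above, was chosen after the values were seen and carries no test.

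To take out the shift that the genes share in a library, each gene was also set against the median of the 31 genes in its library, as a description with no test. That median was itself higher in knockouts (-0.14, -0.17 and 0.30 in Cdc42f/f, 0.28, 0.53 and 0.37 in PgrCreCdc42f/f). A gene with equal RPKM in all libraries would therefore also stand lower in knockouts on this scale. On that scale Synm was lower in knockouts by a mean log2 difference of -1.18, Casq2 of -0.91 and Kcnmb1 of -0.67, and for these 3 genes every knockout was below every control. Pln stood at -0.51 and Srf at -0.30, also without overlap, with the limit on the values of Pln given above. In RPKM, however, Kcnmb1, Pln and Srf overlapped between the groups, and the fitted difference of Srf was 0.09. At the other end Myocd stood at 0.36, Ldb3 at 0.35 and Myh11 at 0.32, of which only Myh11 separated the groups, while Myocd and Ldb3 overlapped. Separation on this scale was common in the group. Vcl (-0.20), Tagln (-0.19), Mylk (-0.11) and Smtn (-0.09) were also lower without overlap, and Hspb6 (0.31), Tpm2 (0.30) and Flna (0.12) higher. For Tagln, Tpm2, Smtn and Mylk the groups nearly touched. In Tagln, whose values are uncertain as given above, the lowest control was at -0.1235 and the highest knockout at -0.1236. The share over all tested genes on this scale was not counted. Acta2 stood at 0.02, Des at 0.03 and Tpm1 at 0.01, which places them at the common shift.

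**Figure D5:**
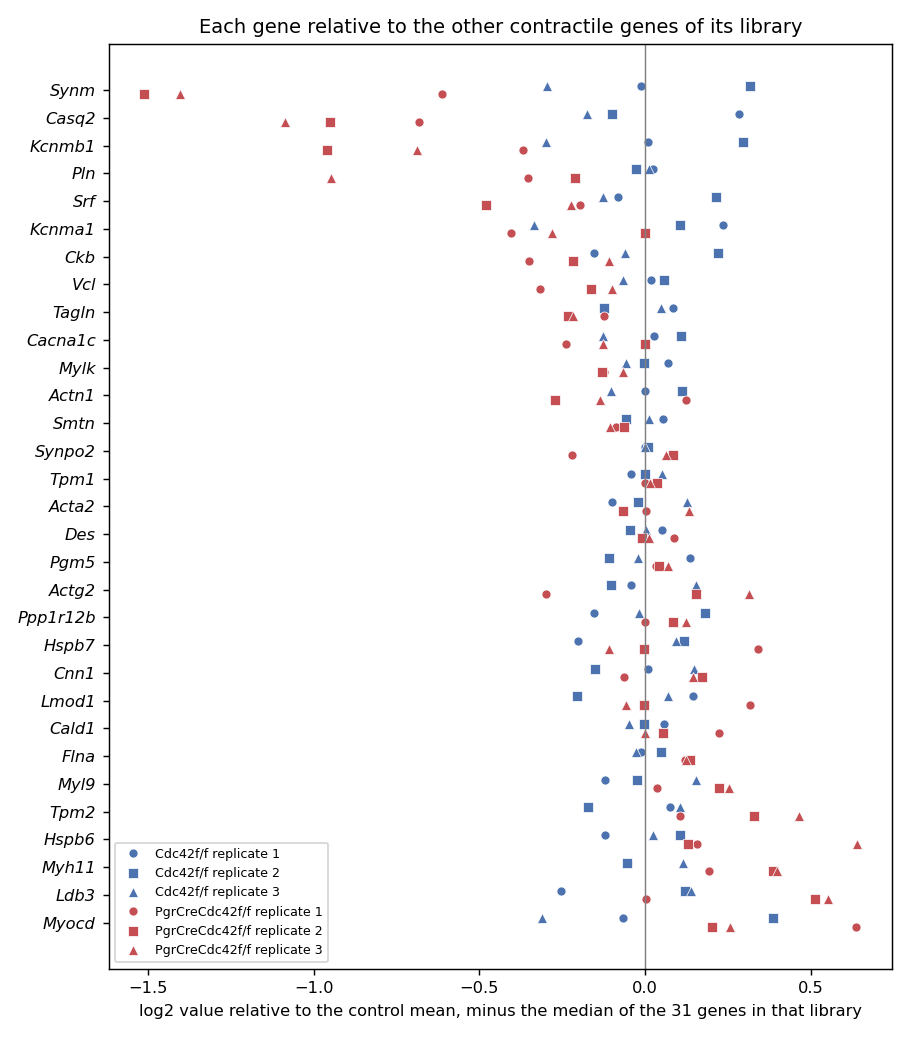
Each point is the log2(RPKM + 0.1) value of a gene in 1 library, relative to its control mean and minus the median of the 31 genes in that library, with genes sorted by the knockout minus control mean (blue, Cdc42f/f; red, PgrCreCdc42f/f; symbols, replicates 1 to 3). Synm, Casq2 and Kcnmb1, at -1.18, -0.91 and -0.67, have all 3 knockouts to the left of all controls. So do Pln, Srf, Vcl, Tagln, Mylk and Smtn, at smaller mean differences, with groups that nearly touch for Tagln, Mylk and Smtn.

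A wider set of 88 genes of smooth muscle function, outside the 31, was read from the same fit, which cannot tell which cells their RNA came from. Of these 79 were tested, 60 (75.9%) had a positive difference, beside 50.9% of all tested genes, and the median was 0.21. Limma called 2 (2.53%) higher and 1 (1.27%) lower, beside 0.762% and 0.893% of all tested genes. The groups did not overlap for 33 genes (41.8%) with the knockouts higher and for 4 (5.06%) with the knockouts lower, beside 13.5% and 13.9%. All 13 genes around myosin phosphorylation were positive (median 0.24), 0 were called, and 9 did not overlap. The leading ones were Pde5a, the cGMP phosphodiesterase gene, at 7.69 ± 1.78 and 12.7 ± 0.841 RPKM (log2 difference 0.74, adjusted p = 0.0760), Rhoa at 30.5 ± 1.77 and 40.1 ± 3.48 RPKM (0.40, adjusted p = 0.0838), and the myosin phosphatase subunit gene Ppp1r12a (0.59, adjusted p = 0.102).

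Among 26 tested genes of adhesion and the sarcolemma 20 were positive (median 0.26) and 1 was called. Tns1, which encodes tensin 1 of focal adhesions, rose from 29.6, 29.7 and 35.5 RPKM in Cdc42f/f to 46.4, 47.6 and 45.6 RPKM in PgrCreCdc42f/f (log2 difference 0.56 ± 0.09 SE, adjusted p = 0.0459, limma). The knockout libraries were close together and all above the controls. Dmd, the dystrophin gene, at 2.98 ± 0.224 and 4.60 ± 0.366 RPKM (0.61, adjusted p = 0.053), and Itgb1, the beta1 integrin gene, at 103 ± 10.2 and 140 ± 9.38 RPKM (0.45, adjusted p = 0.0825), did not pass the test.

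Receptor and junction genes split. Of 14 tested, 8 were positive (median 0.07), with 1 called in each direction. Ednra, the endothelin A receptor gene through which endothelin contracts smooth muscle, rose from 7.75, 8.30 and 9.98 RPKM in Cdc42f/f to 16.6, 15.1 and 13.8 RPKM in PgrCreCdc42f/f (log2 difference 0.80 ± 0.12 SE, adjusted p = 0.0387, limma). Gja1, which encodes connexin 43, the gap junction protein that couples muscle cells electrically and is also made by other cells, fell from 7.03, 7.79 and 5.67 RPKM to 2.95, 3.34 and 3.15 RPKM (-1.08 ± 0.14 SE, adjusted p = 0.0273, limma). Neither gene overlapped between the groups. Gjc1, the connexin 45 gene, was at 4.23 ± 0.416 and 5.15 ± 0.0927 RPKM (0.28, adjusted p = 0.187), without overlap in the direction opposite to Gja1.

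Of 17 calcium handling and channel genes 12 were positive (median 0.15) and 0 were called. Ano1, the calcium-activated chloride channel gene, read 35.6, 45.7 and 42.4 RPKM in controls and 30.0, 27.2 and 31.5 RPKM in knockouts, lower without overlap (log2 difference -0.47, adjusted p = 0.0897, limma). Atp2b4, a plasma membrane calcium pump gene (0.47, adjusted p = 0.0955), and Kcnj8, the pore of an ATP-sensitive potassium channel (0.59, adjusted p = 0.1002), stood higher without overlap. Among 9 tested transcriptional regulators and muscle-restricted genes 7 were positive (median 0.19) and 0 were called, with Wfdc1 at 0.54 (adjusted p = 0.109), Gata6 at -0.34 (adjusted p = 0.127) and the myocardin-related factor gene Mrtfb at 0.23 (adjusted p = 0.187).

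Markers of other muscle and of other cells were read beside these values. Of 22 striated muscle markers 11 were tested, their summed level was between 28.5 and 49.0 RPKM in controls and between 32.8 and 37.4 RPKM in knockouts, with 5 positive and 6 negative differences and a median of -0.05. Ckm, Myh6, Myh7 and Ttn were each below 0.6 RPKM in every library, whereas the troponin genes Tnnt2 and Tnni3 read between 5.26 and 14.3 RPKM and between 6.45 and 10.6 RPKM. Acta1, the skeletal actin gene, read 5.24, 6.78 and 11.0 RPKM in controls and 1.003, 2.51 and 1.42 RPKM in knockouts (log2 difference -2.18, adjusted p = 0.0524, limma), opposite in sign to Acta2. Tnni2, a troponin I gene, was at 0.799 ± 0.130 and 1.99 ± 0.594 RPKM, higher without overlap (1.19, adjusted p = 0.0682, limma). The 9 vascular mural markers, which mark muscle and pericytes of vessels, summed to between 137 and 183 RPKM in controls and between 198 and 213 RPKM in knockouts, with 6 positive and a median of 0.06. Mcam, at 76.5 ± 9.89 and 121 ± 9.74 RPKM, was the most abundant and gave the largest part of these sums (0.66, adjusted p = 0.0524, limma). It was higher without overlap, as were the pericyte genes Kcnj8, at 14.7 ± 3.10 and 21.9 ± 1.56 RPKM (0.59, adjusted p = 0.1002), and Abcc9, at 11.3 ± 3.27 and 17.3 ± 2.41 RPKM (0.64, adjusted p = 0.177). The other 6 markers overlapped, Rgs5, another pericyte gene, being at 25.4 ± 4.22 and 22.4 ± 3.26 RPKM. All 8 endothelial markers were positive with a median of 0.17. The part of vessels in the higher contractile values was not tested.

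Markers of the remaining tissues moved in their own ways. Of 9 fibroblast markers 7 were negative (median -0.49), and their sum was between 715 and 990 RPKM in controls and between 515 and 738 RPKM in knockouts. Of 8 markers of multiciliated cells 7 were negative (median -0.58), with sums of 536 to 766 RPKM in controls and 410 to 639 RPKM in knockouts. The 6 epithelial markers, the secretory genes Ovgp1 and Pax8 among them, split into 3 positive and 3 negative differences, with a median of -0.07. Pax8 was lower without overlap (-0.84, adjusted p = 0.0684, limma), and Ovgp1 overlapped (-0.36). Krt8 (0.57, adjusted p = 0.0524, limma) and Epcam (0.39, adjusted p = 0.0625, limma) were higher without overlap. The sums, mostly Ovgp1, were between 3400 and 4735 RPKM in controls and 2487 and 4035 RPKM in knockouts. All 7 macrophage markers were positive (median 0.65), with sums of 192 to 204 and 257 to 406 RPKM, and Tyrobp, a signalling adaptor gene of myeloid cells, was called higher (31.5 ± 1.06 and 49.8 ± 6.36 RPKM, log2 difference 0.65, adjusted p = 0.0431, limma). The 4 mesothelial markers were all positive (median 0.23) with overlapping sums of 54.2 to 74.2 and 49.2 to 109 RPKM. Of 6 markers of pacemaker cells and nerve 4 were tested and 3 were positive (median 0.51), with sums of 10.3 to 14.4 and 15.4 to 19.2 RPKM. Of 5 adipocyte markers only Adipoq was tested (-2.33), the sums being 1.21 to 2.499 and 0.408 to 0.709 RPKM, and Lep was listed at 0 in all libraries. RPKM values of a library compete for a common total, and the part of these tissues in the contractile values was not tested.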

How the data were processed

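The authors deposited 1 table of RPKM values (reads per kilobase of exon, scaled to library depth) from total RNA sequenced on a BGISEQ-500. The submitters' notes name HISAT2, edgeR and GRCm38 (mm10), and the study's methods name Tophat2; which tool made the table and whether counting used strand are not given in the sources used here. The 6 value columns were assigned by their names, leaving 0 columns unassigned. Among the symbols, 13 appeared as dates or numbers.

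RPKM times the exon length of GENCODE M21 gave whole reads (within 0.01) for 98.8% of 35362 rows, Flna and Cacna1c excepted, which were rounded for voom. The test was limma 3.58.1 (R 4.3.3, lmFit, eBayes with trend) on log2(RPKM + 0.1), 3 libraries against 3 with no covariates, for genes at 0.5 RPKM or more in 3 or more libraries, with Benjamini-Hochberg adjustment over all 17584 genes. The fit was tested on simulated data. Fold changes on this scale understate changes of low genes. P values set each difference against the spread among these 3 samples per genotype, moderated over all tested genes by their level. The scaling alternative, median ratio rescaling, shifted any single library by at most 0.0124 on the log2 scale. The genes, lists and tests were chosen with earlier results of these data known. Named are all 31 genes, from the other lists mainly up to 3 genes with the smallest p and those called, and Cdc42 and Pgr; Ovgp1, Foxj1, Rgs5, Lep, Tnnt2, Tnni3, Ckm, Myh6, Myh7 and Ttn were named for their roles after their values were seen. Alternatives were pseudocounts of 1 and 0.01, no filter, median ratio rescaling, the replicate block, leaving out each library, and limma voom on recovered reads.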

Additional observations from a re-analysis of the deposited data

How the results depend on the processing

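The median log2 difference of the 31 genes, 0.42 in the main setting, ran from 0.30 to 0.58 when 1 library was left out, and it was 0.44 for the 27 genes with at most 10% of exon bases shared, an alternative added after the data were seen. Between 26 and 28 of the 31 genes were positive when 1 library was left out. Called genes over the whole table were 134 higher and 157 lower in the main setting, 57 and 51 without a filter, and 256 and 264 with limma voom, which called 1 of the 31 genes, Myocd. Leaving out 1 library gave 9 to 132 called higher, 3 to 179 called lower, and 0 to 1 of the 31 genes called lower. With the replicate block 0 genes were called higher and 0 lower over the whole table. Deviations of same-numbered libraries correlated at -0.03, -0.07 and 0.08, and those of differently numbered libraries between -0.07 and 0.105. With 3 libraries a group these values cannot show whether same-numbered libraries were paired, and the sources used here do not say. Signs turned for Srf (-0.0180 without Cdc42f/f replicate 1, range over left-out libraries to 0.1796), Pln (0.0453 without Cdc42f/f replicate 3 and 0.1248 without PgrCreCdc42f/f replicate 3, range from -0.3251) and Kcnma1 (-0.0182 without PgrCreCdc42f/f replicate 2, range to 0.3089); the cause was not tested. Over the 31 genes and 12 alternatives 366 fitted differences kept sign and side of the threshold, 4 turned sign and 2 newly passed it (Myocd, Synm). With 3 libraries a group, a missed threshold does not show equal levels.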
